A study of Homo sapiens with 2 samples.

Results

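Nucleoporins, importins, exportins and the proteins of the Ran cycle were described here through 59 protein-coding genes, chosen by their symbols alone from 22965 listed gene IDs. The symbols were those of the NUP, KPNA, KPNB, IPO, XPO, TNPO and RANBP series together with RAN, RANGAP1, RCC1, TPR, POM121, NDC1 and AAAS. Nucleoporins build the nuclear pore complex, the channel through the nuclear envelope, from a ring scaffold and from flexible chains rich in phenylalanine-glycine repeats that fill the passage. Importins carry cargo into the nucleus and exportins carry it out. The small GTPase Ran sets the direction, because RCC1 charges it with GTP on chromatin and RANGAP1 makes it hydrolyse GTP at the cytoplasmic face of the pore. The import receptor KPNA2 and the export receptor XPO1 are known for high levels in many tumours.

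The counts came from 2 RNA-seq libraries of H460 cells, an established human large-cell lung cancer line, with 1 library per group. In the PKP2 group the pSin-puro construct delivered PKP2, the gene of plakophilin 2, a desmosomal plaque protein. The other group, labelled as the control genotype, carried the vector. Both cultures were grown in DMEM with serum and are labelled with passage 5, and the study asked which genes lie downstream of PKP2.

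The PKP2 library held 20319137 counts and the vector library 23513304. PKP2 itself (ENSG00000057294) had 1330 counts in the PKP2 library and 181 in the vector library, in the direction of the labels. Scaled to library size as CPM this was 66.0 with PKP2 and 7.63 with vector. Of the epithelial keratin genes, KRT8 had 465 CPM in the PKP2 library and 697 CPM in the vector library. KRT18 was also lower with PKP2, with 188 CPM against 251 with vector. KRT19 went the other way, with 578 CPM with PKP2 and 274 CPM with vector. EPCAM, another epithelial marker, had only 0.795 CPM in the PKP2 library and 1.18 CPM in the vector library, and CDH1 was not among the listed genes. The lung lineage genes NKX2-1, NAPSA and TP63 had 0 to 3 counts in the PKP2 library and 3 to 10 in the vector library, and SFTPC was not listed. Of the markers of other cell types, CD68 of macrophages had 20.5 CPM in the PKP2 library and 15.3 CPM in the vector library. The fibroblast gene COL1A1 had 2.38 CPM with PKP2 and 5.56 CPM with vector, LUM had 1.09 with PKP2 and 1.01 with vector, and endothelial VWF had 0 counts with PKP2 and 2 with vector. DCN, PTPRC, CD3E and PECAM1 were not listed, and the part of any such cells in the ratios was not tested. Because each group is a single library, nothing here can be checked against replicates and no statistical test was made. Each gene is therefore given as the log2 ratio of its CPM, the PKP2 library over the vector library, with a 95% interval that covers counting error only. In bulk RNA, fewer cells of a type and less RNA per cell cannot be told apart.

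Of the 59 genes, 58 reached the minimum of a mean of 10 counts over the 2 libraries, and their means ran from 175.5 to 17699 with a median of 2559. The exception was NUP210L, a relative of the membrane nucleoporin NUP210. It had 0 counts in the PKP2 library and 2 in the vector library, so no ratio is given for it. KPNA7, an importin alpha, was not analysed here.

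No nuclear transport gene was 2-fold higher or 2-fold lower in the PKP2 library. Of all 15991 genes that reached the minimum, 2.47% passed 2-fold on the higher side and 4.61% on the lower side. None of the 58 was 1.5-fold higher, beside 6.87% of all genes, and only KPNA6 was 1.5-fold lower, beside 12.9% of all genes. The 58 ratios ran from -0.68 for KPNA6 to 0.46 for XPO1 with a median of 0.08, beside a median of -0.03 over all genes. Their quartiles were -0.08 and 0.20. Other genes that averaged 100 counts or more had quartiles of -0.25 and 0.21, but they were less deeply counted, with a median of 773 against 2559.

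At this depth small ratios exceeded counting error in many of the genes. The interval lay wholly above 0 for 28 of the 58 and wholly below 0 for 14, where 25.9% and 28.8% of all genes did so. All genes had a median of only 428.5 counts. Of the 11637 that averaged 100 counts or more, the interval lay above 0 for 3807 and below 0 for 3819. These too were less deeply counted than the 58, with a median of 778. Among the 25 import and export receptors the interval lay above 0 for 15 and below 0 for 3. Among the 5 genes of the Ran cycle it lay above 0 for 1 and below 0 for 4. Among the 26 nucleoporins with a ratio it lay above 0 for 11 and below 0 for 7. Summed over all 58 genes the level was 10588 CPM in the PKP2 library and 9790 CPM in the vector library, a log2 ratio of 0.11.

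**Figure D1:**
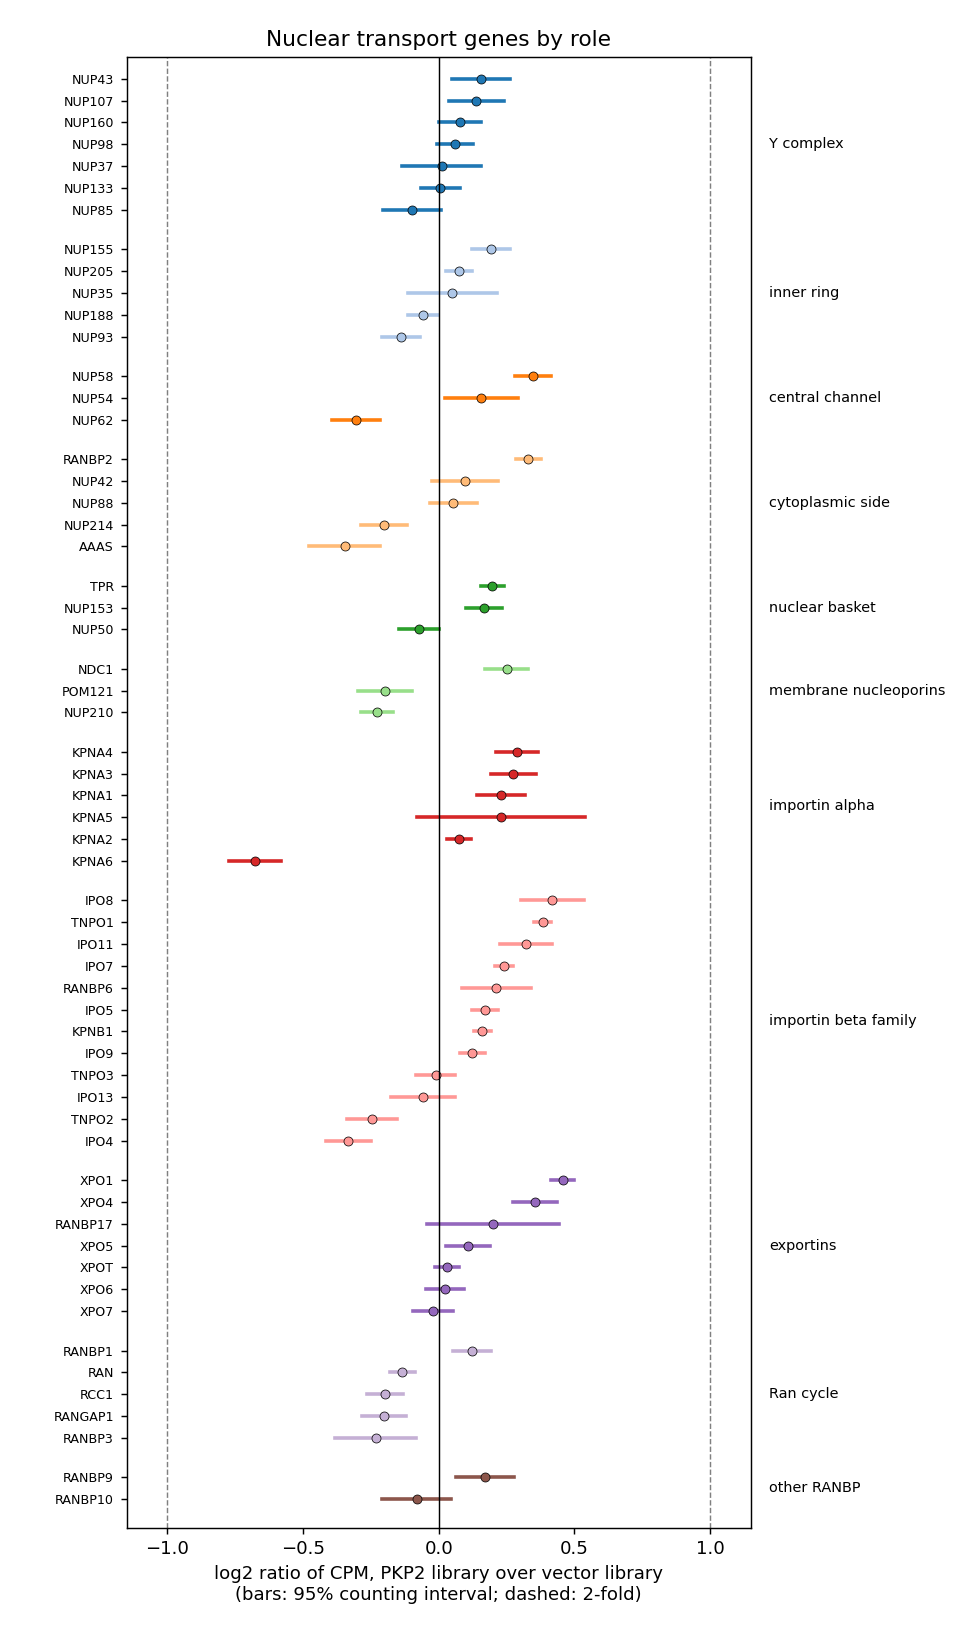
Log2 ratio of CPM (PKP2 library over vector library, x axis) for each of 58 nuclear transport genes, grouped by role down the page. Points are ratios, bars are 95% counting intervals and dashed lines mark 2-fold. No gene reaches a dashed line, XPO1 lies farthest to the right at 0.46 and KPNA6 farthest to the left at -0.68.

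Across all genes the ratio went with the GC content of the transcript, and the nuclear transport genes followed the same line. Over 11610 genes that averaged 100 counts or more and had a known transcript, Spearman's rho between ratio and GC content was -0.61. Over the 58 nuclear transport genes it was -0.79. Both are descriptions across genes that share the same 2 libraries, and genes are not independent replicates. The 30 nuclear transport genes with under 45% GC had a median ratio of 0.19, beside 0.19 for all 4415 well-counted genes of that range. The 17 with 50% GC or more had a median of -0.20, beside -0.22 for all 5085 such genes.

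Each gene was therefore also set against its neighbours in sequence composition. From its ratio was subtracted the median ratio of the 100 well-counted genes outside the group that were nearest to it in GC content and transcript length. On this scale the median of the 58 genes was -0.01 and the quartiles were -0.10 and 0.05. Other genes that averaged 100 counts or more had quartiles of -0.15 and 0.14. Of the 58 genes 55 lay within 0.25 of 0, a share that was not computed for other genes. The 3 genes outside were KPNA6 at -0.73, XPO1 at 0.27 and RAN at -0.26. TNPO1 at 0.246, NUP58 at 0.244, NUP50 at -0.244 and XPOT at -0.240 lay just inside. The standard deviation over genes was 0.155 for the 58 and 0.378 for the other genes that averaged 100 counts or more, which were less deeply counted. The sign of the ratio differed between the measured and the relative value in 19 of the 58, and such changes were not counted over other genes. What causes the trend with GC content was not tested, and with 1 library per group it cannot be told apart from PKP2 expression.

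**Figure D2:**
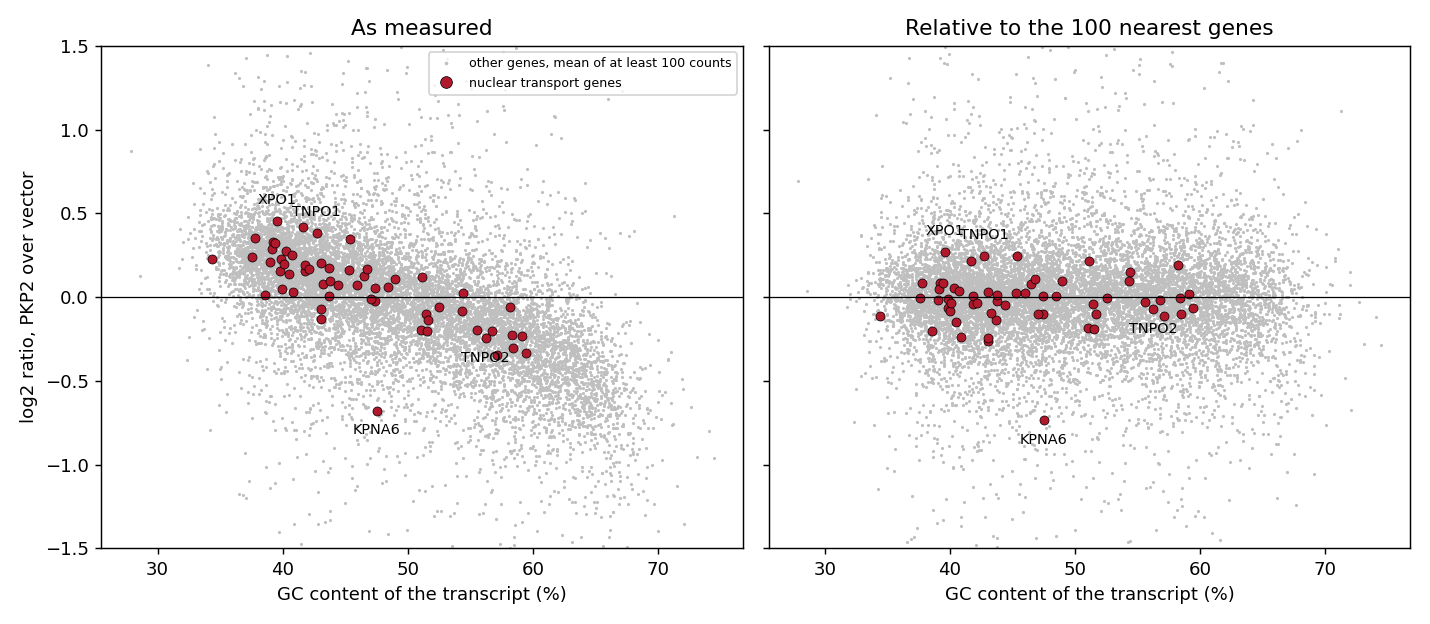
Log2 ratio (PKP2 over vector, y axis) against GC content of the transcript in percent (x axis), as measured on the left and relative to the 100 nearest genes on the right. Red points are 58 nuclear transport genes and grey points are other genes that averaged 100 counts or more, of which 111 on the left and 94 on the right lie beyond 1.5 and are not drawn. The red points slope down on the left and lie within 0.25 of 0 on the right, apart from KPNA6 at -0.73, XPO1 at 0.27 and RAN at -0.26.

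Levels can be compared between genes only per length, so they are given as CPM per kilobase of the principal transcript. On this scale the most abundant genes were the import receptor TNPO1, RANBP1, KPNA2, KPNB1, RAN and IPO7. TNPO1, which imports hnRNP proteins with a proline-tyrosine signal, stood at 305 CPM per kilobase in the PKP2 library and 234 in the vector library. KPNA2, the importin alpha of dividing cells, stood at 150 in the PKP2 library and 142 in the vector library, and KPNB1, the importin beta that carries it, at 134 with PKP2 and 120 with vector. Most scaffold nucleoporins lay far lower, with the Y complex between 11.7 and 29.8 CPM per kilobase in the PKP2 library and between 10.7 and 31.9 in the vector library. The lowest were RANBP17 at 2.998 in the PKP2 library and 2.61 in the vector library and KPNA5 at 0.768 with PKP2 and 0.656 with vector. No level has an error across cultures, and long transcripts that are not fully used lower a value. Use of transcripts longer than the principal one raises it, and for TNPO1 the principal one has 3028 bases. Which transcripts were used was not tested.

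**Figure D3:**
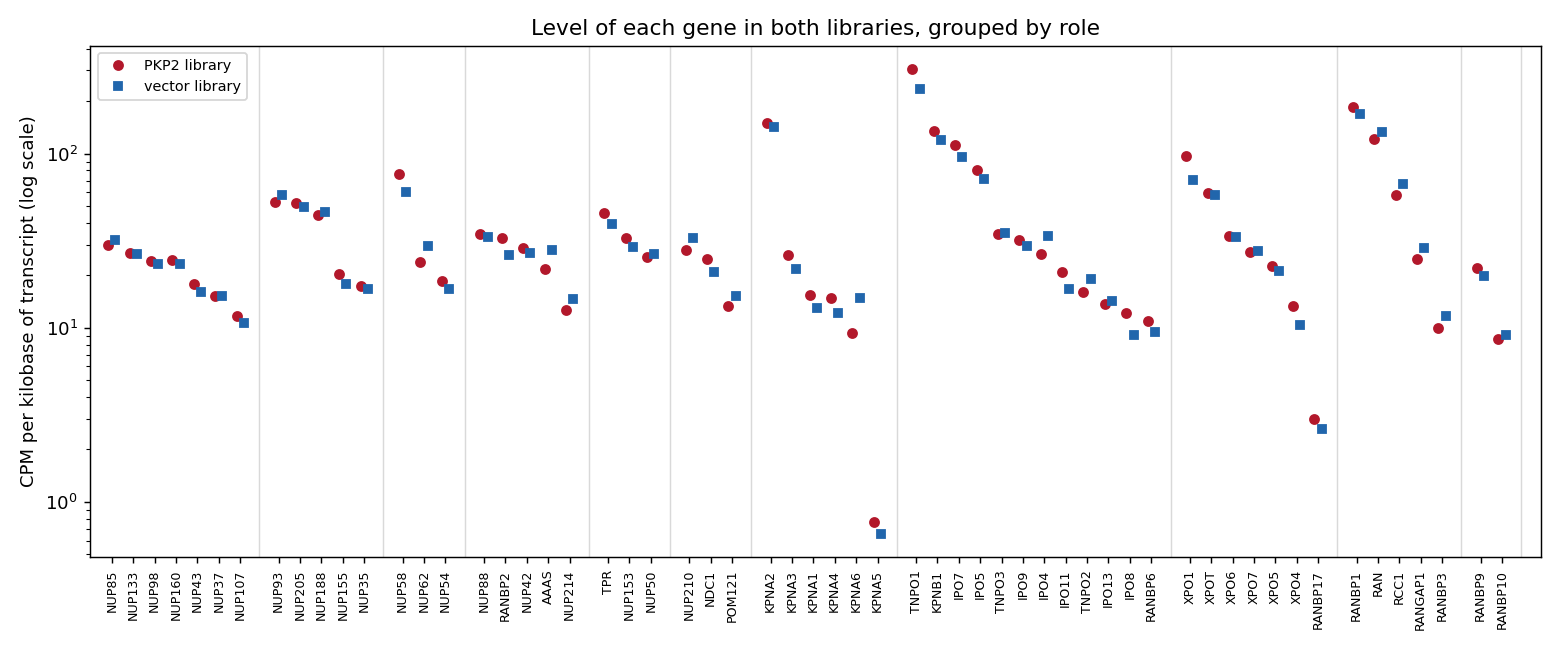
Level of each of 58 nuclear transport genes in CPM per kilobase of transcript (y axis, log scale), grouped by role and ordered by level within it. Circles are the PKP2 library and squares the vector library, 1 library each. Levels span from under 1 for KPNA5 to 305 for TNPO1 in the PKP2 library, and no gene differs 2-fold between the libraries.

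Importin alpha proteins are adaptors that bind the classical nuclear localisation signal and join it to KPNB1. KPNA6, which encodes importin alpha 7, was the gene that differed most. KPNA6 (ENSG00000025800) had 1378 counts in the PKP2 library and 2597 in the vector library, or 68.4 CPM with PKP2 and 109 CPM with vector. It was 1.60-fold lower in the PKP2 library, a ratio of -0.68 (interval -0.77 to -0.58), and its GC content was 47.5%. Relative to its nearest genes it was at -0.73. The other importin alpha genes all had ratios above 0, beside 7563 of all 15991 genes that reached the minimum. Their GC content was lower than that of KPNA6, from 34.4% for KPNA5 to 46.0% for KPNA2. KPNA4 had 2679 counts in the PKP2 library and 2585 in the vector library, a ratio of 0.29 (interval 0.21 to 0.37). KPNA3 had 2359 counts with PKP2 and 2298 with vector, a ratio of 0.27, and KPNA1 had 2106 with PKP2 and 2116 with vector, a ratio of 0.23. KPNA2, which shares 20.8% of its 31-base stretches (31-mers) with other genes, had 7416 counts with PKP2 and 8295 with vector, a ratio of 0.08. KPNA5 was thinly counted, with 175 counts in the PKP2 library and 176 in the vector library, and its ratio of 0.23 had an interval from -0.08 to 0.54, which includes 0. Relative to their nearest genes these 5 lay between -0.11 and 0.06.

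KPNA2 was the main importin alpha in both libraries. It made up 69.3% of the summed importin alpha level per kilobase in the PKP2 library and 69.5% in the vector library. KPNA6 made up 4.29% in the PKP2 library and 7.25% in the vector library, and KPNA3 made up 12.1% with PKP2 and 10.6% with vector.

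KPNA6, KPNA1 and KPNA5 form one subfamily, so an aligned coding stretch of each is shown, because reads of near-identical genes could be exchanged in counting. The stretch was the one nearest the middle of the KPNA6 coding sequence that aligned without a gap and lay within a single exon of all 3 genes. In KPNA6 it is chr1:32162361-32162480 on the plus strand, in KPNA1 chr3:122449618-122449737 on the minus strand and in KPNA5 chr6:116722126-116722245 on the plus strand, in exon 9 of each principal transcript (GENCODE 29, build GRCh38). Capitals mark bases that differ from KPNA6, and all are written 5′ to 3′.
KPNA6: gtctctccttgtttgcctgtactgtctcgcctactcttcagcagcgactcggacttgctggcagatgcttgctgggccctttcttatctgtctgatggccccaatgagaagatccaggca
KPNA1: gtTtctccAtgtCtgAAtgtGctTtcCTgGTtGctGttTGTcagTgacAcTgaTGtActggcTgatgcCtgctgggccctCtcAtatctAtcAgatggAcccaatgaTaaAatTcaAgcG
KPNA5: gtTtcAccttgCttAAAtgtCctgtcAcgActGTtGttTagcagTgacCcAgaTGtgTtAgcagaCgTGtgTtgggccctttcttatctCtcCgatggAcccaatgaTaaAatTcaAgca

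Of these 120 bases 34 differ in KPNA1 and 31 in KPNA5. Over the whole coding sequence KPNA6 was 74.0% identical to KPNA1 and 74.6% identical to KPNA5 at aligned bases, and the longest identical run was 20 bases with KPNA1 and 23 with KPNA5. KPNA6 shares 11.98% of its 31-mers with other genes, but none was shared between KPNA6 and either relative in any annotated transcript. The KPNA6 exons overlap 1 other listed gene on the same strand, ENSG00000250135, which had 6 counts in the PKP2 library and 0 in the vector library. Summed with it the ratio of KPNA6 was -0.67. The difference between KPNA6 and KPNA1 in the ratio was -0.91 (interval -1.04 to -0.78), and -0.67 when each was set against its nearest genes.

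KPNB1 and its relatives bind Ran and pass the pore with or without an adaptor. Of the 12 genes of this family 8 had an interval above 0 and 2 below 0, beside 25.9% above and 28.8% below over all genes. All genes were less deeply counted, with a median of 428.5 against 2798. The family median was 0.17, and 0.02 relative to the nearest genes. KPNB1 (ENSG00000108424), the partner of the importin alpha proteins, had 16621 counts in the PKP2 library and 17522 in the vector library, a ratio of 0.16 (interval 0.13 to 0.19) and 0.02 relative to its nearest genes. IPO7 had 13990 counts with PKP2 and 13950 with vector, a ratio of 0.24, and IPO5, an importer of ribosomal proteins and histones, had 7063 with PKP2 and 7392 with vector, a ratio of 0.17. Relative to their nearest genes IPO7 was at -0.0033 and IPO5 at 0.012. IPO8 had 1308 counts in the PKP2 library and 1153 in the vector library, a ratio of 0.42 (interval 0.30 to 0.53), and was at 0.22 relative to its nearest genes. IPO9 had a ratio of 0.12, RANBP6 of 0.21 and IPO11 of 0.32, the last with 1838 counts in the PKP2 library and 1732 in the vector library. Relative to their nearest genes IPO9 was at 0.08, RANBP6 at -0.02 and IPO11 at 0.08. IPO13, which also exports cargo, was at -0.06 and TNPO3, the receptor of SR splicing factors, at -0.01, both with intervals that take in 0. Relative to their nearest genes IPO13 was at 0.19 and TNPO3 at -0.10.

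IPO4, which imports histones and ribosomal proteins, was the lowest of the family. It had 1950 counts in the PKP2 library and 2894 in the vector library, a ratio of -0.33 (interval -0.42 to -0.25), and -0.07 relative to its nearest genes. IPO4 shares 62.6% of its 31-mers with other genes and overlaps ENSG00000259522, which had 291 counts in the PKP2 library and 268 in the vector library. With the 2 genes summed, the ratio was -0.26. IPO4 also overlaps REC8 on the other strand, which was not included in the sum.

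The transportins TNPO1 and TNPO2 are close relatives that lay on opposite sides of 0. TNPO1 (ENSG00000083312) had 18596 counts in the PKP2 library and 16802 in the vector library, a ratio of 0.38 (interval 0.35 to 0.41). TNPO2 (ENSG00000105576) had 1660 counts in the PKP2 library and 2321 in the vector library, a ratio of -0.25 (interval -0.34 to -0.16). The genes differ in base composition, which is visible in an aligned coding stretch chosen by the same rule, with G and C in capitals. It is chr5:72888078-72888197 on the plus strand, in exon 13 of TNPO1, and chr19:12706676-12706795 on the minus strand, in exon 14 of TNPO2 (GRCh38, written 5′ to 3′).
TNPO1: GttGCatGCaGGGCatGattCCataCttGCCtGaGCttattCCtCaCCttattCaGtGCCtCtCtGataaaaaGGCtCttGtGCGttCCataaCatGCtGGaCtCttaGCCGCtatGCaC
TNPO2: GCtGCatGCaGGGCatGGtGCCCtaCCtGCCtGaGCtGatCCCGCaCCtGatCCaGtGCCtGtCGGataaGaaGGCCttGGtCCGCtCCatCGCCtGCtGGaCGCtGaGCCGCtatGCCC

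Of these 120 bases 57 are G or C in TNPO1 and 77 in TNPO2, and 24 bases differ. Over the coding sequences, which were 73.2% identical at aligned bases and shared no 31-mer, GC content was 41.6% in TNPO1 and 57.7% in TNPO2. The difference between TNPO1 and TNPO2 in the ratio was 0.63 (interval 0.53 to 0.73). It was 0.32 when each was set against its nearest genes, with TNPO1 at 0.25 and TNPO2 at -0.07.

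**Figure D4:**
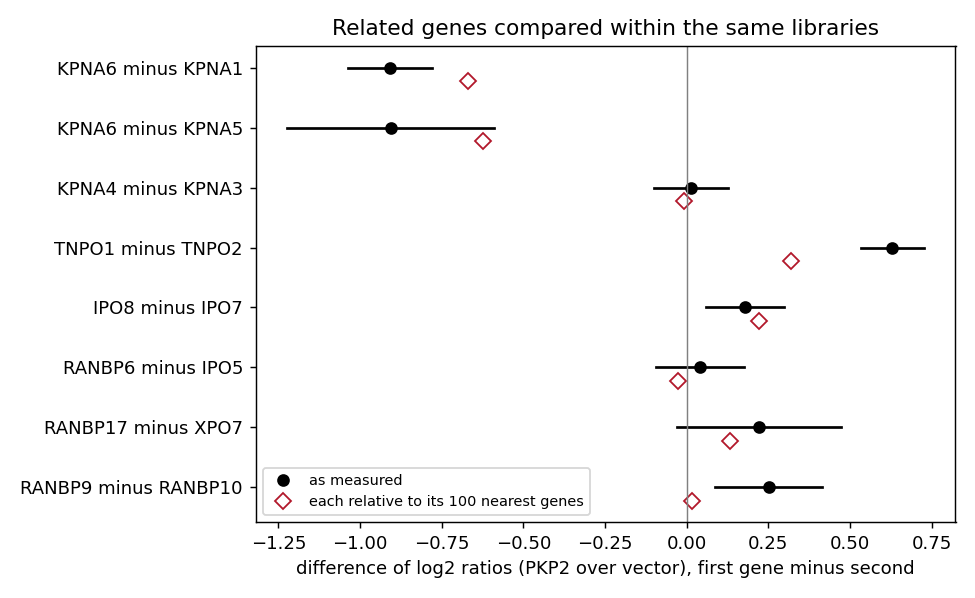
Difference between the log2 ratios (PKP2 over vector) of related nuclear transport genes, the first named minus the second (x axis), for 8 pairs. Filled circles are measured differences with 95% counting intervals as bars, and open diamonds are differences after each gene was set against its 100 nearest genes. KPNA6 lies below its relatives on both scales, while RANBP9 minus RANBP10 is 0.25 as measured and 0.02 on the other scale.

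KPNA6 minus KPNA5 was -0.91 (interval -1.22 to -0.59), and -0.62 when each was set against its nearest genes. The remaining pairs of relatives differed less than these and than TNPO1 and TNPO2. IPO8 minus IPO7 was 0.18 (interval 0.06 to 0.30). KPNA4 minus KPNA3 was 0.01 (interval -0.10 to 0.13) and RANBP6 minus IPO5 was 0.04 (interval -0.09 to 0.18), with intervals that take in 0. RANBP17 minus XPO7 was 0.22 (interval -0.03 to 0.47). RANBP9, a scaffold of the CTLH ubiquitin ligase, minus its relative RANBP10 was 0.25 (interval 0.09 to 0.42), from ratios of 0.17 and -0.08. These 8 pairs were chosen by relatedness after the ratios had been seen.

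Exportins bind their cargo together with Ran-GTP, and XPO1, the receptor of leucine-rich export signals and the target of selinexor, had the highest ratio of the 58 genes. XPO1 (ENSG00000082898) had 9559 counts in the PKP2 library and 8205 in the vector library, or 96.6 CPM per kilobase with PKP2 and 70.4 with vector. Its ratio was 0.46 (interval 0.41 to 0.50), and 0.27 relative to its nearest genes. XPO4, which exports the translation factor eIF5A, had 2651 counts in the PKP2 library and 2442 in the vector library, a ratio of 0.36. Relative to its nearest genes XPO4 was at 0.08. XPO5, the exporter of microRNA precursors, had 2455 counts with PKP2 and 2684 with vector, a ratio of 0.11. XPOT, the tRNA exporter, had 7679 counts with PKP2 and 8851 with vector, a ratio of 0.03 with an interval that takes in 0. Relative to its nearest genes XPOT was at -0.24, and it shares 20.5% of its 31-mers with other genes. XPO6, which exports actin with profilin, was at 0.02, XPO7 at -0.02 and RANBP17 at 0.20, also with intervals that take in 0. Relative to their nearest genes XPO6 was at 0.15, XPO7 at -0.10 and RANBP17 at 0.03.

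Of the 5 genes of the Ran cycle 4 had ratios below 0, beside 8428 of all 15991 genes that reached the minimum. RAN (ENSG00000132341) had 6503 counts in the PKP2 library and 8406 in the vector library, a ratio of -0.13 (interval -0.18 to -0.09), and -0.26 relative to its nearest genes. RCC1, the exchange factor, had 3328 counts with PKP2 and 4497 with vector, a ratio of -0.20 and -0.18 relative to its nearest genes. RCC1 overlaps the snoRNA host gene SNHG3 on the same strand, and SNHG3 had 1777 counts in the PKP2 library and 2638 in the vector library, a ratio of -0.33. RANGAP1, the GTPase-activating protein, had 2110 counts with PKP2 and 2860 with vector, a ratio of -0.20, and lay at -0.02 relative to its nearest genes. RANBP3, a cofactor of XPO1, had 650 counts with PKP2 and 900 with vector, a ratio of -0.23 and 0.02 relative to its nearest genes. RANBP1, which releases Ran-GTP from transport receptors, was the exception. RANBP1 had 3109 counts in the PKP2 library and 3364 in the vector library, a ratio of 0.12 (interval 0.05 to 0.19), and 0.21 relative to its nearest genes. It overlaps TRMT2A on the other strand, and their counts were not summed.

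The ring scaffold genes of the pore that match the symbol rule had ratios from -0.14 to 0.19. The Y complex forms the outer rings, and NUP98 was placed in it as the gene of NUP98-NUP96. The 7 Y complex genes that match the symbol rule had ratios from -0.10 for NUP85 to 0.15 for NUP43, with a median of 0.06. Of the other Y complex genes, SEC13 was at 0.16, SEH1L at 0.05 and AHCTF1 at 0.27. Relative to their nearest genes SEC13 was at 0.29, SEH1L at -0.07 and AHCTF1 at 0.03. AHCTF1 shares 51.9% of its 31-mers with other genes. NUP107 had 1527 counts in the PKP2 library and 1635 in the vector library, a ratio of 0.14, and NUP160 had 2645 with PKP2 and 2952 with vector, a ratio of 0.08. NUP133 at 0.0060, NUP37 at 0.011, NUP98 at 0.06 and NUP85 had intervals that take in 0. Relative to their nearest genes 6 of the 7 that match the rule lay below 0, with a median of -0.10. On that scale 5768 of all 11637 genes that averaged 100 counts or more lay above 0. The 5 genes of the inner ring had ratios from -0.14 for NUP93, which anchors the ring, to 0.19 for NUP155. Relative to their nearest genes these 5 ran from -0.10 for NUP93 to 0.0083 for NUP155, with a median of -0.04. NUP93 had 2912 counts in the PKP2 library and 3779 in the vector library. NUP205 had 6523 counts with PKP2 and 7304 with vector, a ratio of 0.07, NUP188 had 5063 with PKP2 and 6211 with vector, a ratio of -0.06, and NUP35 at 0.05 had an interval that takes in 0.

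The central channel complex consists of NUP62, NUP58 and NUP54, whose repeats line the passage, and its genes lay apart from each other. NUP62 had 1733 counts in the PKP2 library and 2521 in the vector library, a ratio of -0.30 (interval -0.39 to -0.22). NUP58 had 3819 counts in the PKP2 library and 3539 in the vector library, a ratio of 0.35 (interval 0.28 to 0.41), and NUP54 had 881 with PKP2 and 931 with vector, a ratio of 0.16. Relative to their nearest genes NUP62 was at -0.10, NUP54 at -0.01 and NUP58 at 0.24. NUP62 overlaps ATF5, a stress transcription factor gene, on the other strand. ATF5 had 216 counts in the PKP2 library and 471 in the vector library, and with both summed the ratio was -0.38.

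On the cytoplasmic side of the pore, RANBP2, the large filament protein that holds RANGAP1 and acts as a SUMO ligase, had the highest ratio. RANBP2 had 7732 counts in the PKP2 library and 7244 in the vector library, a ratio of 0.33 (interval 0.28 to 0.38), and 0.08 relative to its nearest genes. It shares 33.4% of its 31-mers with other genes, and its RGPD copies together had 1707 counts in the PKP2 library and 1638 in the vector library. Summed with them the ratio was 0.32. AAAS, mutated in triple A syndrome, had 810 counts in the PKP2 library and 1214 in the vector library, a ratio of -0.35 (interval -0.48 to -0.22) and -0.11 relative to its nearest genes. NUP214, a docking site of XPO1, had 1947 counts with PKP2 and 2637 with vector, a ratio of -0.20 and -0.19 relative to its nearest genes. Its partner NUP88, which shares 21.95% of its 31-mers with other genes, was at 0.05 and NUP42 at 0.10, both with intervals that take in 0.

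In the nuclear basket TPR, the coiled-coil protein that forms its fibres, had 8856 counts in the PKP2 library and 9100 in the vector library, a ratio of 0.20 (interval 0.16 to 0.24). NUP153 had 3610 counts with PKP2 and 3786 with vector, a ratio of 0.17, and NUP50 had 2668 with PKP2 and 3307 with vector, a ratio of -0.07 with an interval that takes in 0. Relative to their nearest genes TPR and NUP153 were at -0.04 and -0.03 and NUP50 at -0.24. Of the membrane nucleoporins, which fix the pore in the envelope, NDC1 had 2560 counts in the PKP2 library and 2536 in the vector library, a ratio of 0.25. NUP210 had 4065 counts with PKP2 and 5605 with vector, a ratio of -0.23, and POM121 had 1468 with PKP2 and 1984 with vector, a ratio of -0.20. POM121 shares 72.6% of its 31-mers with other genes, and summed with its copy POM121C the ratio was -0.16. Of the other genes that overlap a gene on the same strand, IPO11 summed with KIF2A had a ratio of 0.29, NUP188 with its partner -0.06 and NUP98 with CHRNA10 0.06. All 3 membrane nucleoporins lay within 0.04 of 0 relative to their nearest genes.

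Transport genes whose symbols fall outside the rule were read from a list of 50 symbols for other pore proteins, receptors, mRNA export, SUMO enzymes and RANBP2 copies. Of these 44 reached the count minimum. None was 2-fold higher and 1 was 2-fold lower, beside 2.47% and 4.61% of all genes, and the median ratio was 0.0014. The 2-fold lower gene was TMEM33, a membrane protein of the endoplasmic reticulum and nuclear envelope whose yeast relative Pom33 sits at pores. TMEM33 had 676 counts in the PKP2 library and 1801 in the vector library, a ratio of -1.18 (interval -1.31 to -1.05), and -1.46 relative to its nearest genes. It shares 5.30% of its 31-mers with other genes and overlaps no exon of another listed gene. ZC3H11A, a zinc finger protein of mRNA export, had 2766 counts in the PKP2 library and 5035 in the vector library, a ratio of -0.63, with -0.87 relative to its nearest genes. It shares 91.0% of its 31-mers with other genes and overlaps ZBED6, which had 906 counts with PKP2 and 924 with vector, and the ratio of their sum was -0.46.

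The remaining genes of that list lay within 1.5-fold. CSE1L, which returns importin alpha to the cytoplasm, had 10347 counts in the PKP2 library and 10226 in the vector library, a ratio of 0.25 and 0.04 relative to its nearest genes. NUTF2, which brings Ran back into the nucleus, had 2748 counts with PKP2 and 3810 with vector, a ratio of -0.23 and -0.20 relative to its nearest genes. The mRNA export receptor NXF1 had 1161 counts in the PKP2 library and 1321 in the vector library, a ratio of 0.05. Its partners lay apart, with NXT1 at -0.52 (384 counts in the PKP2 library and 650 in the vector library) and NXT2 at 0.53 (1134 counts with PKP2 and 923 with vector). NXT1 was at -0.34 and NXT2 at 0.30 relative to their nearest genes. Over the 21 mRNA export genes of the list the median was -0.04, with 5 intervals above 0 and 10 below. Over all genes 25.9% lay above and 28.8% below, but all genes were less deeply counted, with a median of 428.5 against 1264.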

How the data were processed

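Per the file headers, each deposited file pairs Ensembl gene IDs with a count column, taken here as estimated counts without normalization because 1 text row holds a decimal. All gene values were whole. That row and a gene row with no value, 2 per file, were left out. Per the labels' protocols, Trizol RNA went into an Illumina TruSeq library preparation. Bowtie 0.12.2 and the builds GRCh37 and hg19 are listed in the submitters' processing notes. Not given in the sources used here are the counter, whether it used strand, and what became of reads that match several genes, so counts of overlapping or copied genes are uncertain. Of the 58 genes, 6 overlap exons of another listed gene on the same strand and 16 on the other strand. Of these 16, only NUP62 was summed with its partner on the other strand.

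CPM used library totals times TMM factors from edgeR 4.0.16 under R 4.3.3, which were 0.991 for the PKP2 library and 1.01 for the vector library. The quasi-likelihood test of edgeR needs replicates, so no p-value was computed. Intervals are exact binomial (Clopper-Pearson), and for differences between genes Wald intervals of log counts. Both cover counting error only and hold no spread between cultures. PCR copies of a molecule cannot be recognised, so reads may not be independent and the intervals may be too narrow. Genes at 0 were set to a floor of 3 counts.

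Symbols came from a table of gene names (22579 IDs matched). Gene type, transcript length, GC content, exon overlaps and 31-mers came from GENCODE 29, whose build GRCh38 is not the one in the notes. It was used by gene ID, and its coordinates are printed only beside sequences. Length and GC content are those of the principal transcript. Ratios were also corrected by a lowess curve on GC content (fraction 0.3; statsmodels 0.14.6) or by the 100 nearest genes. Steps were tested on simulated counts. Members, lists and corrections were chosen with earlier results of these data known. Named genes were the 12 highest and 12 lowest ratios, the 6 highest levels per kilobase, RAN, RANGAP1, RCC1, KPNB1, XPO1, TPR, RANBP2, PKP2 and members below the minimum. From the list of other transport genes, those at least 1.5-fold higher or lower were named. All others named were chosen after their values were seen. Alternatives were other scalings (DESeq2 1.42.0 size factors, plain totals), 1 or 5 CPM added, other count minimums and thresholds, the GC corrections, and leaving out shared or overlapping genes. Scripts ran under Python 3.11.15 (SciPy 1.17.1, pandas 2.3.3), and plots were drawn with matplotlib 3.10.9.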

Additional observations from a re-analysis of the deposited data

How the results depend on the processing

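The number of nuclear transport genes past 2-fold was 0 in either direction, also under DESeq2 size factors, plain totals, 1 or 5 CPM added, both count minimums, the GC correction and the 100 nearest genes. At a 1.5-fold threshold 1 gene was lower, and 1 was lower at 1.5-fold relative to the 100 nearest genes, a setting added after the data were seen. Both were KPNA6. The median ratio of 0.08 became 0.0052 under the GC correction and -0.014 relative to the 100 nearest genes, and by construction these remove what genes alike in GC content, or in GC content and length, share. Without a count minimum 1 other transport gene was 2-fold higher, RANBP3L with 3 counts in the PKP2 library and 1 in the vector library. Of 29 named genes, 24 moved beyond their counting interval under the GC correction and 25 against the 100 nearest genes, and none under another scaling or added CPM. No paired analysis was possible because each group holds 1 library. Depth limits ratios of thinly counted genes such as KPNA5 and RANBP17, and it says nothing of the spread between cultures.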

Other observations

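Pseudogene copies of nuclear transport genes, which lie outside the protein-coding set, were also listed. They numbered 16, from 10 parent genes, and 8 had a mean of at least 10 counts. Together the 16 had 664 counts in the PKP2 library and 752 in the vector library, a log2 ratio of 0.06 (interval -0.10 to 0.21). Of the 8, IPO5P1 was at 0.21, NUP50P1 and RANBP1P1 at 0.24 and IPO7P2 at 0.56, all with intervals that take in 0. RANP1, a copy of RAN, had 143 counts in the PKP2 library and 211 in the vector library, a ratio of -0.32 (interval -0.64 to -0.01), and XPOTP1, a copy of XPOT, had 204 and 256, a ratio of -0.09. TNPO1P3, a copy of TNPO1, had 39 counts in the PKP2 library and 24 in the vector library, a ratio of 0.94 (interval 0.17 to 1.73). KPNA2P3, a copy of KPNA2, had 23 counts in the PKP2 library and 8 in the vector library, a ratio of 1.76 (interval 0.55 to 3.13). These copies share 53.0% (RANP1), 34.5% (XPOTP1), 85.7% (TNPO1P3) and 98.4% (KPNA2P3) of their 31-mers with another gene, and how shared reads were counted is not given in the sources used here.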
